A study of Drosophila melanogaster with 4 samples.

Results

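Chromosome arm 3L carried 673 of the 3888 CTCF-enriched regions that were listed across the genome of late Drosophila melanogaster embryos. The regions came from chromatin immunoprecipitation and sequencing (ChIP-seq) of whole wild-type Oregon-R embryos of 14 to 16 h, with 2 CTCF ChIP libraries, replicates 1 and 2. The 2 input libraries, made from chromatin without immunoprecipitation, were not analysed here. All libraries came from wild-type embryos of the same stage, so there was no treated or mutant group to compare. The members were all enriched regions on the 3L sequence in the pooled list, which the authors made from both ChIP libraries. The neighbouring heterochromatin sequence 3LHet was left out, and the only depleted region of the list lay on another arm. Each library also had a list of its own, with 434 of 2408 regions on 3L in replicate 1 and 386 of 2080 in replicate 2. Positions are in FlyBase release 5. A genome or gene annotation in those coordinates was not used here, and the regions therefore carry neither sequence nor gene name.

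CTCF is a DNA-binding protein with a row of zinc fingers. It marks chromatin insulators, which keep enhancers from acting on the wrong promoters and which often lie at borders between chromosomal domains. In Drosophila it works with cofactors such as CP190, and it is best known for its role at boundaries of the homeotic genes. The gene that encodes CTCF itself lies on 3L. In whole embryos, binding in fewer cells and weaker binding in every cell cannot be told apart.

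The 3L regions divided into many weak and fewer strong ones. Each region has a score given by the authors, for which no formula is stated. Scores are ranked only within a list, and values from different lists are set side by side only as a description. On 3L the pooled score ran from 0.086 to 5.13, with a median of 0.40 and quartiles of 0.31 and 1.40. Scores up to 0.5 were held by 402 of the 673 regions, of which 187 lay between 0.3 and 0.4. Above that, 73 regions scored over 0.5 to 1, 58 over 1 to 2, 67 over 2 to 3, 57 over 3 to 4 and 16 over 4. Strong regions, those with a score over 2, numbered 140, or 20.8% of 3L regions, beside 15.9% over the whole pooled list. The regions covered 1353995 bp, or 5.52% of the 24.5 Mb arm, with a median width of 2011 bp and quartiles of 1387 and 2389 bp.

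**Figure D1:**
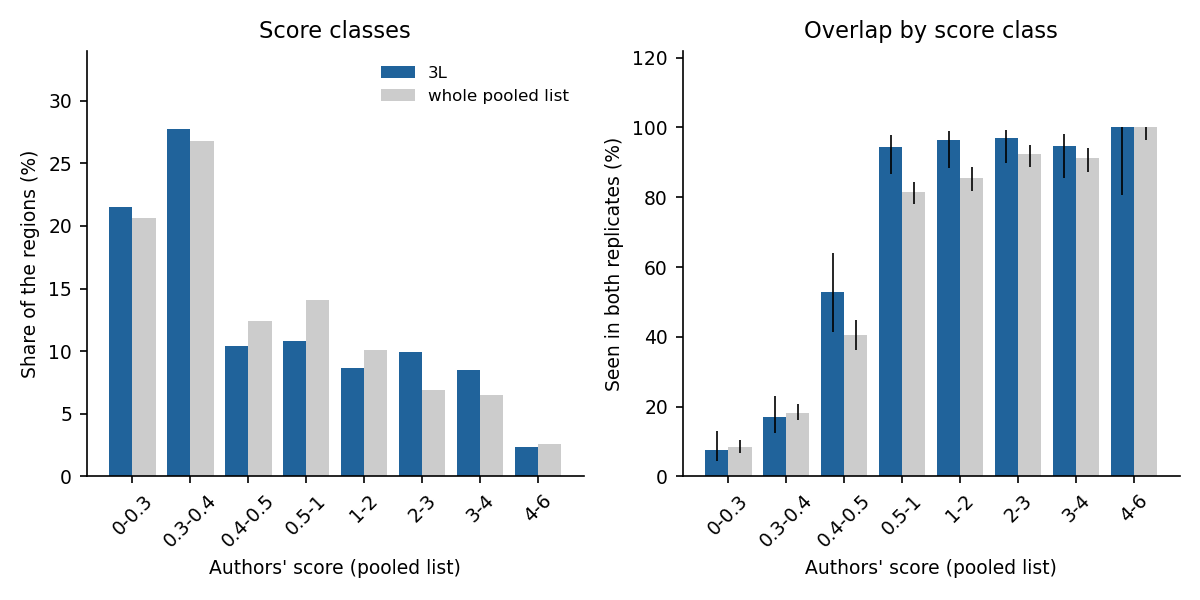
Share of regions in each class of the authors' pooled score (left, in %) and share of each class that overlapped a region of both replicate lists (right, in %, with 95% Wilson intervals), for 3L in blue and the whole pooled list in grey. On 3L the overlap share rises to 94.5% in the class from 0.5 to 1 and stays above 94% in the higher classes. Score and overlap rest on the same libraries.

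The strongest CTCF regions on 3L were near the top of both libraries. The first was 3L:3615168-3618158, with scores of 5.13 in the pooled list, 5.19 in replicate 1 and 5.20 in replicate 2, and it ranked 8 of 3888, 11 of 2408 and 6 of 2080 in those lists. The second, 3L:504516-509238, is also one of the broader regions of the arm at 4723 bp and scored 5.09, 5.17 and 5.02 in the same lists. The third was 3L:2850346-2853722, with scores of 5.03, 5.18 and 5.11. All 3 lie in the telomere-side part of the arm, within its first 5 Mb.

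The next in order lay further along the arm. The region 3L:14103040-14106278 scored 4.86 in the pooled list, 5.22 in replicate 1, where it had the highest score on 3L, and 4.81 in replicate 2. It was followed by 3L:21644496-21647586 with a pooled score of 4.63, 3L:16947230-16949830 with 4.45 and 3L:21596334-21598830 with 4.39. The first and last of these lay within 50 kb of each other. The remaining 8 of the 15 highest-scoring regions were 3L:10891052-10894140, 3L:18011280-18014412, 3L:5861640-5864422, 3L:6255496-6259092, 3L:8740836-8743860, 3L:13837130-13839756, 3L:21950036-21952462 and 3L:856494-859068. They are given in order of pooled score, which ranged over 4.04 to 4.38. All 15 matched exactly 1 region in each replicate list, ranked no lower than 95 in replicate 1 and 138 in replicate 2. The pooled scores rest on these very libraries, and the ranks are a description of the chosen regions.

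Matching each 3L region to the replicate lists, with at least 1 bp of overlap, found 340 in both replicates. That is 50.5% of 673 (95% Wilson interval 46.8 to 54.3, counting error only), beside 46.7% over the whole pooled list. A further 83 (12.3%, beside 13.9%) matched replicate 1 alone, and 38 (5.65%, beside 5.79%) matched replicate 2 alone. The other 212 (31.5%, interval 28.1 to 35.1, beside 33.7%) matched neither. At the median, regions in both replicates scored 1.25 and were 2375 bp wide. Those in replicate 1 alone and replicate 2 alone had medians of 0.31 and 0.28, and none of them scored above 0.52. Whether the 3L shares differ from the rest of the list was not tested, because 2 libraries give no test over samples and regions are not replicates.

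Overlap on 3L rose steeply with score. The pooled score rests on the same 2 libraries that define the overlap, so the rise is a description and not independent support for the regions. Of the 145 regions scoring up to 0.3, 11 were in both replicates (7.59%, beside 8.36% of that class in the whole list). The share was 32 of 187 (17.1%, beside 18.3%) over 0.3 to 0.4, and 37 of 70 (52.9%, beside 40.5%) over 0.4 to 0.5. It reached 69 of 73 (94.5%) over 0.5 to 1, beside 81.4% in the whole list and 92.2% on 2L, 2R and 3R together. It was 56 of 58 (96.6%, beside 85.5%) over 1 to 2, and 65 of 67 (97.0%, beside 92.5%) over 2 to 3. Over 3 to 4 it was 54 of 57 (94.7%, beside 91.3%), and over 4 all 16 regions were in both, beside 100% of that class in the whole list. On 2L, 2R and 3R together the shares were 96.3% over 1 to 2, 96.9% over 2 to 3 and 97.0% over 3 to 4, the last above that of 3L. Of the 140 strong regions on 3L, 135 (96.4%) were in both replicates and 5 in neither, beside 93.2% in both for the whole list and 97.5% for those arms.

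Width separated those 5 from the other strong regions. Every one of the 191 3L regions that scored over 1 and were at least as wide as the shortest replicate region, 1301 bp, was in both replicates, and the narrowest of them was 2205 bp. The other 7 regions scoring over 1 were 1001 to 1033 bp wide, at or near the 1001 bp minimum of the pooled list. All 7 were in neither replicate. Over the whole list, 77 of the 826 regions under 1301 bp scored over 1, and 0 of the 826 were in both. Whole-list shares for the sets of 191 and 7 were not worked out, so neither set can be read as particular to 3L. The split by width was not absolute over the whole list, where regions of up to 1487 bp that scored 3.0345 were in neither replicate. None of the 192 regions of 1301 to 2000 bp scored above 0.5, and 25 of them (13.0%, beside 13.1% over the whole list) were in both replicates. Over the whole list, 17 of the 1280 regions of that width scored over 1, up to 3.03. Of regions over 2000 and up to 3000 bp, 265 of 290 (91.4%, beside 91.8%) were in both, and of those over 3000 bp 50 of 52 (96.2%, beside 95.5%). The 3L shares in both replicates by width were thus close to those of all regions. The lack of higher scores at 1301 to 2000 bp did not hold over the whole list.

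**Figure D2:**
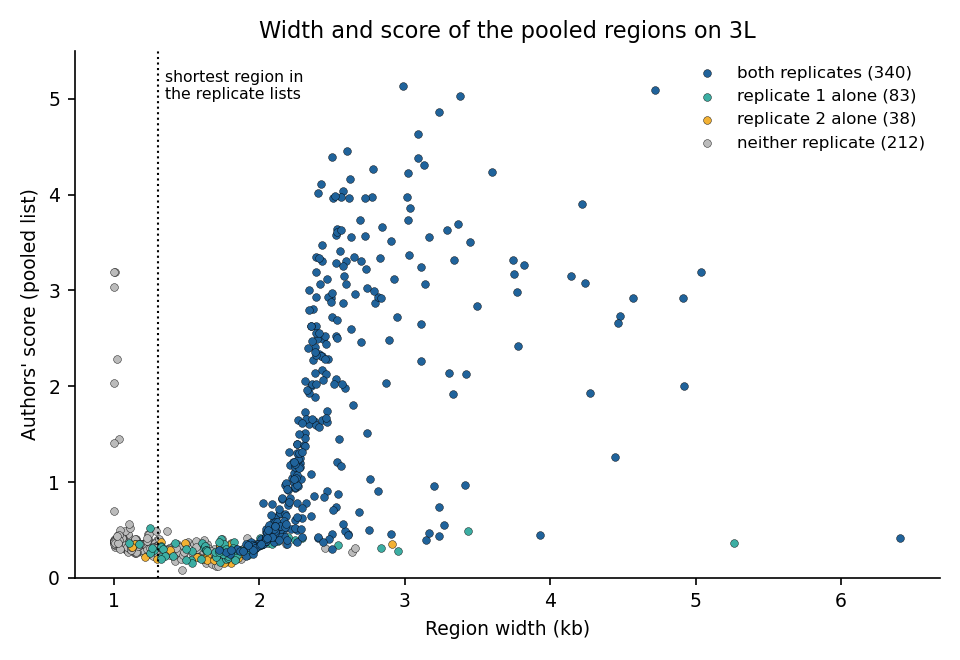
Each point is 1 of the 673 pooled regions on 3L, by its width in kb and its score in the pooled list, coloured by the replicate lists it overlaps. The dotted line marks 1301 bp, the shortest region of the replicate lists. High scores occur in regions over 2 kb wide that are in both replicates, and in 7 regions of 1001 to 1033 bp that are in neither.

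The 5 highest-scoring 3L regions in neither replicate were all of the narrow kind. Both 3L:5454658-5455662 and 3L:11324846-11325846 had a score of 3.1865, identical in the deposited list, and 2 further pooled regions outside 3L held the same score, both on unplaced scaffolds or heterochromatin. The score of 3L:23831838-23832838, 3.0345, was shared by 12 pooled regions, 9 of them on unplaced scaffolds or heterochromatin. All 12 were in neither replicate and were 1001 to 1487 bp wide. The others were 3L:16180980-16181998 with a score of 2.28 and 3L:5996522-5997522 with 2.03. A score found more than once in the list was held by 82 of the 673 3L regions, beside 14.4% of all pooled regions. Of the 82, 53 were in neither replicate. The matching share over the whole list was not worked out, so the 53 of 82 cannot be read as particular to 3L. Read counts are not given, so what a repeated score stands for was not tested. Most regions in neither replicate were weak, with a median score of 0.33, and 129 of the 212 (60.8%, beside 57.3% over the whole list) were narrower than 1301 bp. Among 3L regions of at least that width, 83 of 534 (15.5%, beside 18.3%) were in neither.

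The replicate lists on 3L can also be compared directly. In the replicate 1 list 343 of 434 regions on 3L had a partner in replicate 2, or 79.0% (Wilson interval 75.0 to 82.6), beside 76.0% over the whole replicate 1 list. In the replicate 2 list 343 of 386 had one in replicate 1, or 88.9% (85.3 to 91.6), beside 88.3%. The 91 unshared replicate 1 regions had a median score of 0.43 and the 43 unshared replicate 2 regions a median of 0.42, and the shared ones had medians of 1.32 and 1.29. The highest-scoring unshared region of replicate 1 was 3L:19737721-19739763 with a score of 0.73, number 1138 of 2408. It was followed by 3L:21202286-21204340 with 0.68, 3L:22982327-22983863 with 0.67, 3L:18890913-18893016 with 0.63 and 3L:1034268-1035971 with 0.62. In replicate 2 the first was 3L:15006617-15008701 with 0.72, number 1141 of 2080. The next were 3L:6477205-6478519 with 0.66, 3L:22684329-22685764 with 0.61, 3L:13196822-13198163 with 0.59 and 3L:6639803-6641259 with 0.58. Of these 10 regions, 9 overlapped a pooled region, and the exception was 3L:22982327-22983863. In all, 8 replicate 1 regions, that one among them, and 5 replicate 2 regions on 3L overlapped no pooled region, which is so for 1.50% and 1.06% of the whole lists. None of the unshared regions on 3L scored above 0.73.

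Among the 340 regions in both replicates, the order of strength was nearly the same in each library. Spearman's rho between the replicate scores was 0.954 (0.944 over the whole list) and Pearson's r 0.987 (0.985), over regions that share their 2 libraries, given as a description. The score was higher in replicate 1 for 179 of the 340 (52.6%, beside 50.1%). As no score formula is stated, this share does not show which library had the stronger signal. Within classes of pooled score, Spearman's rank correlation was 0.939 over the 135 regions with a pooled score over 2 and 0.860 over the 125 with a score over 0.5 to 2, and it was -0.076 over the 80 with a score up to 0.5. Those 3 classes were cut on the pooled score, which uses both libraries and narrows the range within a class. The class values are therefore not comparable with the overall one and do not show where the agreement comes from.

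**Figure D3:**
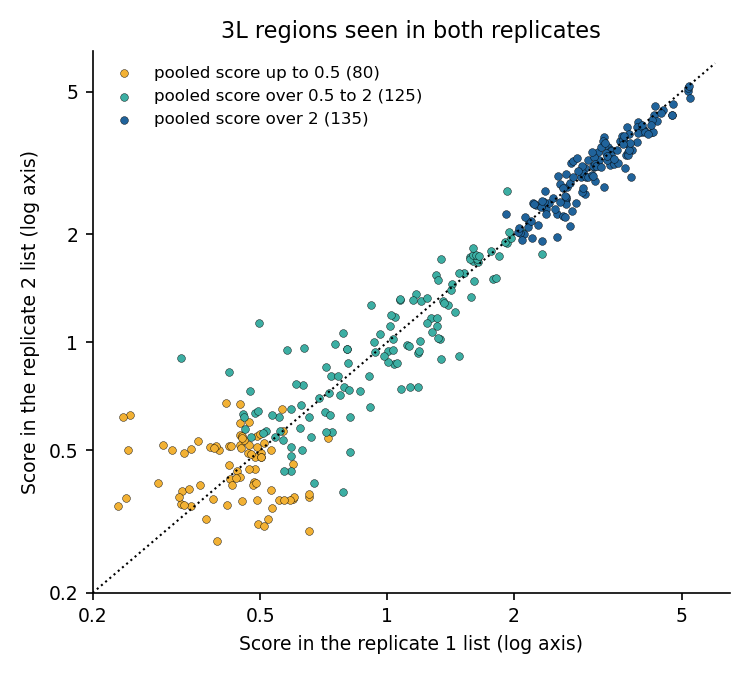
Scores of the 340 3L regions in both replicates, replicate 1 across and replicate 2 up, on log axes, coloured by class of the pooled score, with the line of equal scores dotted. The 135 points with a pooled score over 2 lie close to the line, and the 80 with a score up to 0.5 form a cloud with no visible order.

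Between the replicates, 5 of the 340 regions differed by over 40 points in score percentile, beside 28 of 1814 over the whole list. All 5 had pooled scores between 0.46 and 0.58. The largest difference was at 3L:8447050-8449130, with a score of 0.65 in replicate 1 (percentile 48.2) and 0.30 in replicate 2 (percentile 1.06). At 3L:22886886-22889070 the order was the opposite, with 0.32 in replicate 1 (percentile 5.11) and 0.90 in replicate 2 (percentile 52.2). The others were 3L:13138744-13140866, 3L:12941654-12943714 and 3L:17838428-17840510, all higher in replicate 1 by 40.6 to 46.5 points.

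Positions agreed closely as well. For the 336 regions with exactly 1 partner in each replicate, the centres of both partners were a median of 38.3 bp apart, and 308 pairs (91.7%) lay within 200 bp, beside 44.5 bp and 88.2% over the whole list. The median distance was 34.3 bp for regions with a score over 2 and 93.0 bp for those up to 0.5. These distances are small beside the region width of about 2 kb.

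A few broad 3L regions were split in the replicate lists. The widest, 3L:13994462-14000870, was 6409 bp long with a pooled score of only 0.41, and it overlapped 2 regions of replicate 1 and 3 of replicate 2. The second widest, 3L:11284680-11289944, was 5265 bp long, scored 0.36 and matched replicate 1 alone. The other 3 of the 5 widest were strong. The region 3L:11037540-11042578 scored 3.19 and overlapped 1 region of replicate 1 and 2 of replicate 2. The region 3L:11112768-11117686 scored 2.00 and overlapped 2 regions of replicate 1 and 1 of replicate 2. The last was 3L:603760-608674, with a score of 2.92 and 1 partner in each.

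Along the arm, CTCF regions were present in every whole 1 Mb window and were fewest next to the centromere, which lies at the high-coordinate end of 3L. The 24 whole windows held 10 to 38 pooled regions, with a median of 28.5. The fullest were 21000001 to 22000000 with 38 regions, 8000001 to 9000000 with 37, and 1 to 1000000, one of 3 windows with 35. The emptiest were 23000001 to 24000000 with 10 regions, and 7000001 to 8000000 and 20000001 to 21000000 with 17 each. The window at 21 to 22 Mb had 18 regions in neither replicate, the most of any window, and 15 in both. By number of strong regions the leading window was 10000001 to 11000000, with 13 strong among 25 regions and a median score of 2.00. It was picked with these values in view. The first region of the arm was 3L:198212-200588 with a score of 0.85. The last was 3L:24478402-24479402, a narrow region in neither replicate with a score of 1.41.

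**Figure D4:**
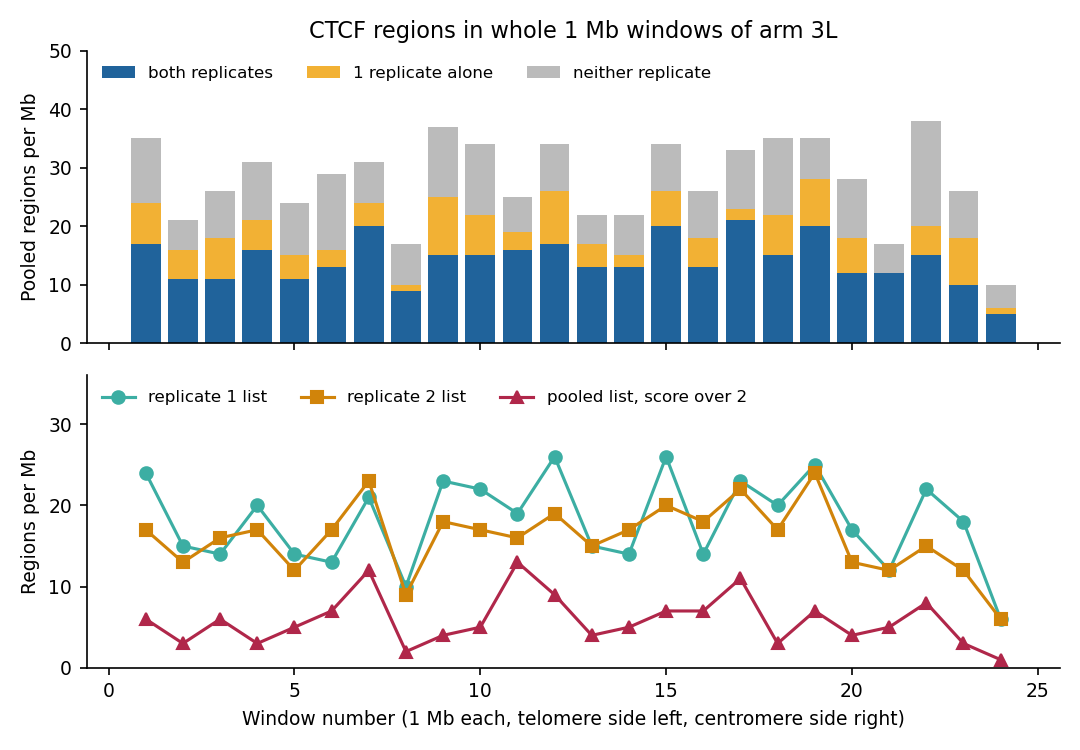
Numbers of CTCF regions in the 24 whole 1 Mb windows of 3L, in order from the telomere side to the centromere side. Upper bars show pooled regions by the replicates they overlap, and lower lines show the replicate 1 list, the replicate 2 list and pooled regions with a score over 2. Window 22 holds most pooled regions (38) and window 24 fewest (10).

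Density was fairly even over the first 20 Mb, at 27.4, 29.6, 27.4 and 31.4 pooled regions per Mb in successive 5 Mb blocks, and 20.7 in the remaining 4.54 Mb. Strong regions were most frequent in the middle block, from 10000001 to 15000000, at 7.60 per Mb, beside 4.60 in the first block and 3.74 in the last. In that middle block 57.7% of regions were in both replicates, beside 44.7% in the last block and 46.7% over the whole pooled list. The block was picked by its strong regions, nearly all of which on 3L were in both replicates. Its share in both is therefore a description and no separate result.

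The centromere-side 5 Mb had 21.2 regions per Mb, against 29.0 on the rest of the arm, a ratio of 0.731. The ratio was 0.676 in the replicate 1 list and 0.555 in the replicate 2 list. In the last 1 Mb only 8 pooled regions remained, beside 9 in the centromere-side 1 Mb of 2L, 5 on 2R and 37 on 3R. Of the 8 on 3L, 1 was in both replicates, 3L:23561450-23563690 with a score of 1.03, beside 46.7% over the whole pooled list. On the other autosome arms the ratio for the centromere-side 5 Mb was 1.01 on 2L, 0.771 on 2R and 1.08 on 3R. For the centromere-side 2 Mb it was 0.581 on 3L, against 0.506 on 2L, 0.220 on 2R and 1.14 on 3R. How much of the sequence near each centromere could be mapped is not known, its part in these ratios was not tested, and the arms' ratios were not tested against each other.

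Neighbouring 3L regions were usually 10 kb or more apart. Between centres the median distance was 23.2 kb, with quartiles of 8.64 and 46.4 kb. The replicate 1 and replicate 2 lists, with fewer regions, had medians of 36.4 and 38.1 kb. Regions in both replicates were 44.1 kb apart at the median and strong regions 116 kb. Of the 672 gaps between consecutive regions, 309 (46.0%) were from 10 to 50 kb, and 42 (6.25%) were under 1 kb, beside 5.37% over the whole list. Gaps over 100 kb numbered 50 (7.44%), beside 5.09% on 2L, 2R and 3R together.

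**Figure D5:**
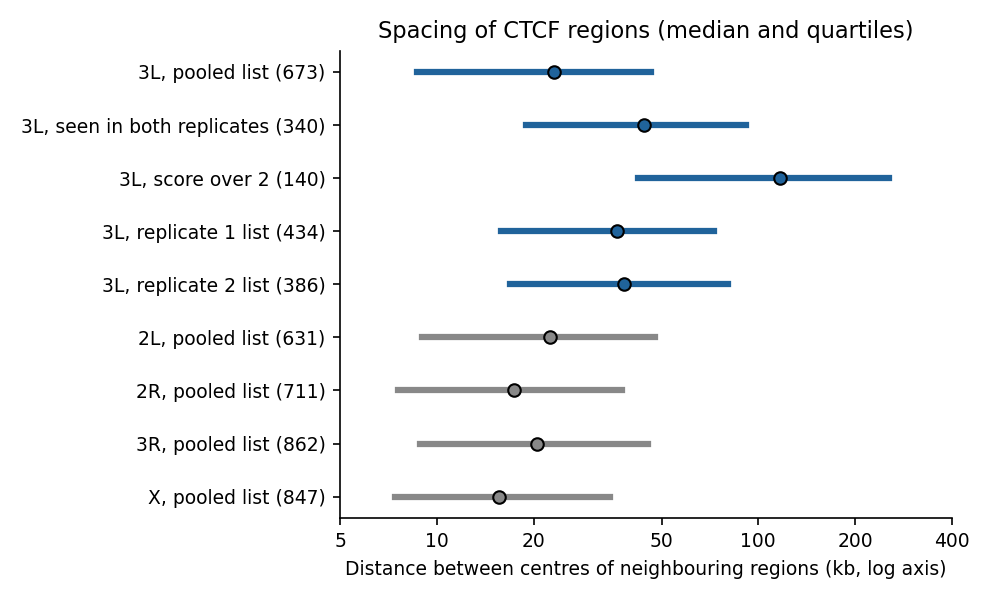
Distance in kb between centres of neighbouring CTCF regions on a log axis, with the median as a point and the quartiles as a bar, for sets of 3L regions in blue and for the pooled list on 4 other arms in grey, with the number of regions in brackets. The 3L median is 23.2 kb in the pooled list and 116 kb among regions with a score over 2.

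The longest stretches without a region were mostly on the centromere side. The longest, 408 kb, lay between 24048648 and 24456524, and the next, 291 kb, between 23245852 and 23536520. Others of 252 kb and 236 kb lay from 21954908 to 22206960 and from 23563690 to 23799694. In the middle of the arm, 250 kb from 13480768 to 13730642 held no pooled region.

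Some CTCF regions on 3L stood side by side. In the closest pairs, 3L:3224220-3226410 and 3L:3226416-3227712, and 3L:11672604-11674008 and 3L:11674014-11676040, only 5 bp separated the regions, and all 4 scored between 0.33 and 0.41. The pair 3L:21950036-21952462 and 3L:21952504-21954908, 41 bp apart, was strong on both sides. The left region had scores of 4.22 in replicate 1 and 4.04 in replicate 2, and the right one had 4.02 and 4.04. Each library listed them as separate regions. Another strong region, 3L:21945064-21948368 with a pooled score of 2.14, lay 1667 bp to the left, and the 252 kb stretch without regions began on the right. The other close pairs were 3L:21310216-21312302 with 3L:21312354-21313778, and 3L:19284270-19286314 with 3L:19286368-19288904. In the last of these a weak region of score 0.39 adjoined a strong one of 3.60.

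Joining regions across gaps of up to 5 kb left 436 of 673 (64.8%) on their own, 152 in pairs, 54 in groups of 3 and 20 in groups of 4, with 1 group of 5 and 1 of 6. Of the 136 pairs of consecutive 3L regions within 5 kb, 8 were strong on both sides. These groups and pairs were not counted over the whole list, so they cannot be called particular to 3L. The largest group, of 6 regions over 24.2 kb at 3L:17549470-17573646, held no strong region, with scores from 0.27 to 0.92 and 2 of 6 in both replicates. A group of 4 at 3L:10263516-10279340 held 3 strong regions, with scores of 3.15, 2.41 and 2.63. The gap of 5 kb and these groups were chosen after the values were seen.

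The fullest 100 kb windows held both kinds of region. The window 17500001 to 17600000 had 9 pooled regions with a median score of 0.37, of which 4 were in both replicates. The windows 10200001 to 10300000 and 18000001 to 18100000 had 8 each, with 6 in both and median scores of 2.42 and 1.00, and 1 further window also had 8. In the 10200001 window 5 of the 8 regions were strong, with replicate 1 scores of 2.43 to 3.18 and replicate 2 scores of 2.25 to 3.22. Of 245 windows, 29 had no pooled region.

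Set against the other large autosome arms, 3L was among the arms with the fewest regions per Mb, and it had more regions scoring over 2 but fewer scoring over 4. It held 27.4 regions per Mb, against 27.4 on 2L, 33.6 on 2R and 30.9 on 3R, a ratio of 0.897 to these arms together. Strong regions numbered 5.70 per Mb on 3L, against 4.48 on 2L, 4.30 on 2R and 4.66 on 3R, a ratio of 1.27. The same ratio was 1.24 with the replicate 1 list and 1.22 with the replicate 2 list, each by its own score. The contrast turned round at the top of the pooled list, where 16 regions on 3L scored over 4, or 0.652 per Mb, against 59 or 0.819 per Mb on 2L, 2R and 3R together, a ratio of 0.796. In the pooled list 3L had 5.70 strong regions per Mb, against 5.44 on the X chromosome, and in the replicate 2 list it had 5.46, against 5.66 on X. The median score percentile of 3L regions within the pooled list was 48.1, against 43.7 for the other autosome arms together and 56.9 on X. In the replicate 1 list it was 54.3, against 45.8 on those arms and 51.6 on X. In the replicate 2 list it was 54.4, against 47.6 and 50.9. The contrasts with the other autosome arms kept their direction in both replicate lists for all regions, those scoring over 2 and score percentile. The contrast in all regions was smaller there, with ratios of 0.931 and 0.962. It was 0.977 for pooled regions in both replicates and 0.994 for those above the median score. The contrasts were not tested, since an arm is 1 unit and its regions are not replicates, and the score of 2 was chosen with the results known.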

How the data were processed

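ChIP-seq of CTCF gave 2 ChIP libraries, grouped from the labels. Fixation used 1.8% formaldehyde and the antibody step lasted 15 h, per the labels' protocols. The labels do not say that replicates came from separate collections. The authors deposited 3 lists of enriched regions, 1 per ChIP library and 1 pooled, each with a score per region. Per the file headers, coordinates are those of FlyBase release 5. The submitters' processing notes name Bowtie 0.12.7. Peak caller, threshold and score formula: not given in the sources used here. Read depth is unknown.

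Regions were matched by at least 1 bp of overlap, taking the highest-scoring partner, with positions counted from 1. Windows were assigned by region centre. Wilson intervals at 95% treat regions as independent. No test was run. Named regions were the 15 highest scores, the 5 highest unmatched per list, the 5 widest, the 5 longest and closest gaps, the 5 largest replicate differences, and the fullest and emptiest windows. The members, lists and rules were chosen with earlier results of these data known. The only gene table supplied was for release 6, so no gene was matched. Alternatives were other overlap rules, score and width limits, each replicate alone and other windows. Overlap code was tested on simulated data. Software was SciPy 1.17.1, Matplotlib 3.10.9, pandas 2.3.3 and NumPy 2.4.6 under Python 3.11.15.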

Additional observations from a re-analysis of the deposited data

Results flagged for a closer look

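CTCF regions were also listed on 3LHet, the heterochromatin sequence of the arm, which is outside the comparison on 3L. The pooled list held 12 regions there, or 4.70 per Mb, against 27.4 on 3L. Of these 12, 3 were in both replicates and 7 in neither, beside 46.7% and 33.7% over the whole pooled list. Their median score was 1.10, and 2 of them had a repeated score. Their highest score was 3.0345, a value held only by pooled regions in neither replicate. The median therefore does not show stronger binding on 3LHet.

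On 3L itself, 8 replicate 1 regions and 5 replicate 2 regions overlapped no pooled region (1.50% and 1.06% of the whole lists had none). None of the 13 overlapped a region of the other replicate, and their highest scores were 0.67 in replicate 1, at 3L:22982327-22983863, and 0.52 in replicate 2, at 3L:9030612-9031939.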

How the results depend on the processing

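No paired analysis was possible because the input libraries were not analysed here and no result comes from a test. Of 49 alternative values, 11 stayed near the reported value, 37 moved and 1 turned round. Some moves followed from the setting itself, since a share matching 1 replicate cannot be below the share matching both. The cause of the other changes was not tested. Near meant within the counting interval for shares and within the replicate spread for other values. That spread could be narrow, with score percentiles of 54.3 and 54.4 in the single lists. The tally is therefore no measure of how firm the results are. The fullest 100 kb window had a looser limit, under which 6, 7 and 10 regions counted as near the reported 9. A reciprocal overlap of 50% left all 4 overlap shares within their intervals. With centres within 200 bp, 44.1% of 3L pooled regions were in both replicates, and 71.2% of replicate 1 and 80.1% of replicate 2 regions were shared. With only regions above the median score of each list, these shares were 64.4%, 90.0% and 98.1%, 27.6% of pooled regions were in neither, the density ratio of 3L to the other autosome arms was 0.994, spacing 50.1 kb and width 2383 bp. With only regions of at least 1301 bp, 15.5% were in neither, the median score percentile was 52.3 and the strong-region ratio 1.25. For regions in both replicates, the density ratio was 0.977, the centromere-side ratio 0.581, spacing 44.1 kb, width 2375 bp and the score percentile 55.4. The last 2 Mb gave a centromere-side ratio of 0.581, and edge-to-edge gaps a median of 20.9 kb. Strong-region ratios, with limits added after the data were seen, were 1.13 for a score over 1 and 1.10 over 3, and the ratio turned round to 0.796 over 4.

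With either replicate left out, the share of pooled regions matched by the remaining library was 56.2% to 62.9% and the unmatched share 37.1% to 43.8%. The single lists gave density ratios of 0.931 to 0.962, centromere-side ratios of 0.555 to 0.676, spacings of 36.4 to 38.1 kb, widths of 2146.5 to 2260.5 bp, score percentiles of 54.3 to 54.4, strong-region ratios of 1.22 to 1.24, and fullest 100 kb windows of 6 to 7 regions. Windows moved by 50 kb gave 10 regions at 3L:17550001-17650000.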
